A study of Homo sapiens with 15 samples.

Results

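Interventions against signalling downstream of cell surface receptors were compared with malignant breast cells given no named agent, using the 3 samples titled with PD98059, LY294002 or dominant-negative Rap1 and the 3 samples titled T4, out of 15 samples in the series. Each intervention had 1 sample, and the samples were chosen by their titles alone. PD98059 is a small molecule that keeps the kinase MEK from being activated, LY294002 is a small molecule inhibitor of PI3K, and a dominant-negative Rap1 is a mutant of the small GTPase Rap1 that blocks signalling through the normal protein. All 6 samples were of the cell line HMT3522 T4, the malignant member of the HMT3522 human mammary epithelial series, and all were cultured in a 3-dimensional gel of laminin-rich extracellular matrix. The submitters name the treated samples reverted. The other samples, used here to estimate the spread and the difference between the 2 deposited tables, were 3 of the nonmalignant line S1 and 6 of T4 with another agent (GM6001, MMPs and ADAMs, TNF protease inhibitor–2, Tyrphostin AG 1478, mAb225 or AIIB2, as labelled). The sources used here give no doses, no times, no vector of the dominant-negative Rap1 and no word on which samples received vehicle. T4 is a single line. The labels do not state that the T4 samples were grown as separate cultures, and p-values therefore reflect the spread among these arrays alone, technical or not. Each class of agents in the fit holds 3 different agents with 1 sample apiece. Differences between agents of a class thus count as spread in the p-values and standard errors, which do not measure the spread among replicates of an agent.

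Growth factor receptors and integrins activate RAS, RAF, MEK and ERK in turn, and ERK then switches on immediate early genes together with the phosphatases and Sprouty proteins that damp the pathway. PI3K activates AKT, which holds FOXO transcription factors outside the nucleus and, through mTOR, raises the synthesis of lipids and proteins. Rap1 cycles between a GDP and a GTP form and is best known for activating integrins and strengthening cell junctions, and it can also act on ERK signalling.

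LY294002 and the 3 T4 samples lie in the first deposited table, which holds 8 samples, whereas PD98059 and dominant-negative Rap1 lie in the second, which holds 7. Single-agent differences of these 2 agents from T4 therefore have a table term removed. It was estimated for each gene from the S1, GM6001, MMPs and ADAMs and TNF protease inhibitor–2 samples, which span both tables. The agents among these differ between tables, so table and agent cannot be fully told apart in the term. In the group fit, LY294002 against the other 2 agents also enters it. Table terms printed for single genes below are those of the single-agent differences. The size of the table term had a median of 0.20 on the log2 scale over the 9111 genes tested. The typical standard error of a difference from T4 was 0.22 for PD98059, 0.18 for LY294002 and 0.22 for dominant-negative Rap1. Between T4 samples 1 and 2 a difference of 2-fold or more was seen in 6 genes, whereas T4 sample 3 was that far from them in 356 and 426. Markers of the epithelium averaged 10.31 to 10.66 in the 3 agents' samples and 10.35 to 10.63 in T4 on the log2 scale. Among 7 tested, 2, KRT18 and LAMB3, passed the test as lower, where 5.37% of all genes did. Fibroblast markers averaged 7.28 to 7.78 in the agents' samples and 7.25 to 7.37 in T4, with 0 of 5 tested passing the test, and leukocyte and endothelial markers averaged 6.78 to 7.05 against 6.80 to 6.84 in T4, with 0 of 1 tested. Their part in the results was not tested. In bulk RNA, fewer cells of a type and less RNA per cell cannot be told apart.

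The check of the intervened genes was possible for the Rap1 sample only in part. RAP1A, one of the genes that encode Rap1, read 10.91 in the dominant-negative Rap1 sample, and 9.64 to 10.21 in the other 6 samples of the same table. This was the highest RAP1A value of that table, but whether the introduced transcript is matched by the probe set is unknown here. T4 read 10.49, 10.38 and 10.32 in the other table. In that table LY294002 read 10.71, S1 samples 1 and 2 read 10.49 and 10.59, GM6001 10.37, and MMPs and ADAMs 10.42. The difference of the dominant-negative Rap1 sample from T4 was 1.12 with the table term removed, and part of it rests on that term. The 3 agents together did not pass the test for RAP1A (0.49 ± 0.21, adjusted p = 0.178, limma) or for RAP1B (-0.26 ± 0.16, adjusted p = 0.324), its near relative. PD98059 and LY294002 act on proteins, so the transcripts of their targets check no label.

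The 3 agents as a group, set against T4 with limma over all 15 samples, gave 335 genes higher (3.68% of the 9111 tested) and 489 lower (5.37%) at an adjusted p under 0.05. Without LY294002 these counts were 174 and 218, and the number higher was 220 without GM6001 and 213 without the sample labelled MMPs and ADAMs. Of the 335 and 489, 83 were at least 2-fold higher and 199 at least 2-fold lower. With quantile normalization within each table the split was 491 higher and 419 lower. The genes that passed the test and were at least 2-fold from the T4 mean in the same direction in each of the 3 agents numbered 46 higher (0.505%) and 124 lower (1.36%). These 170 are called shared rises and shared falls here. The rule fixed their direction and size, so their values are a description and carry no further test. Without T4 sample 2 the shared rises numbered 74 and the shared falls 148. The deposited values, with no table term removed, of all 3 agents lay above all 3 T4 values in 46 of the 46 shared rises, where 14% of all genes did so. They lay below them in 122 of the 124 shared falls, where 14.6% of all genes did so, and the exceptions were MKI67 and SUGCT. Because the rule chose genes far from T4 in each agent, this separation was largely fixed beforehand and is no check of these genes. The same holds wherever a shared gene is said below not to overlap with T4.

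**Figure D1:**
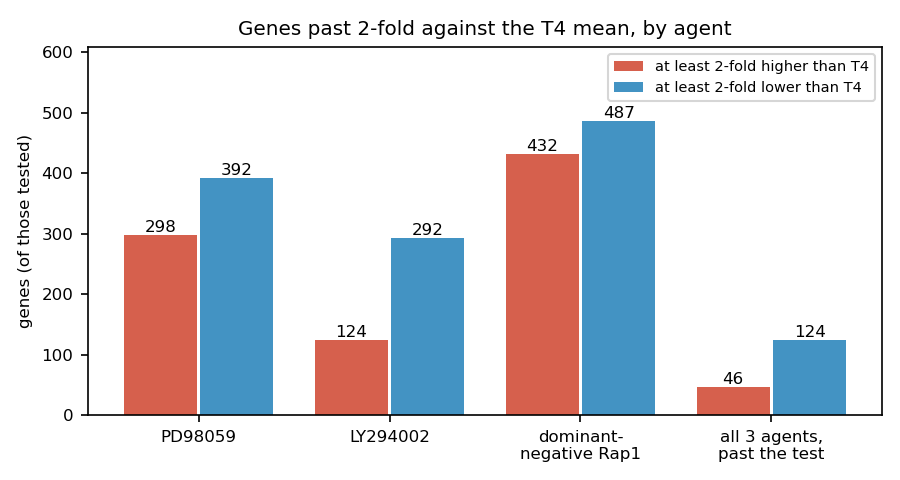
Bars give the number of genes, of 9111 tested, that were at least 2-fold higher (red) or lower (blue) than the T4 mean in each agent's single sample, and the last pair gives the genes that were so in all 3 and passed the test. LY294002 had the fewest with 124 higher and 292 lower, and the shared genes numbered 46 and 124.

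Taken singly, PD98059 was at least 2-fold above the T4 mean for 298 genes (3.27%) and below it for 392 (4.3%). LY294002 was above for 124 (1.36%) and below for 292 (3.2%), and dominant-negative Rap1 above for 432 (4.74%) and below for 487 (5.35%). These counts have no replicate check. Only LY294002 shares a table with T4, so the number of genes moved by an agent and the table it was measured in cannot be told apart. The 3 sets of differences also share the same T4 samples.

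The 10 leading shared falls, ranked by the smallest difference among the agents, were FGFBP1, ZBED2, IER3, PTGS2, PLEK2, PHLDA1, SCD, HBEGF, PHLDA2 and TFPI2. FGFBP1, which releases fibroblast growth factors stored in the matrix, read 7.96 with PD98059, 7.88 with LY294002 and 9.54 with dominant-negative Rap1, against 11.93, 12.44 and 13.12 in T4. The groups stood well apart, and S1 read 7.29, 7.11 and 8.91. FGFBP1 fell by 4.86 ± 0.65 on the log2 scale (adjusted p = 0.0013, limma), although the table term of this gene was large at 1.43. IER3, an immediate early gene, read 8.67, 7.83 and 8.499 with the agents in the same order, against 12.26, 11.98 and 12.10 in T4. PTGS2, the inducible cyclooxygenase that makes prostaglandins, read 6.71, 6.93 and 6.77 with the agents, against 10.42, 9.92 and 9.63 in T4. The PTGS2 values with all 3 agents were close together and far below T4, and the group difference was -3.10 ± 0.18 (adjusted p = 3.72e-06).

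HBEGF, a ligand of EGFR that is shed from the cell surface, read 7.17, 7.31 and 7.49 with PD98059, LY294002 and dominant-negative Rap1, against 9.96, 10.55 and 9.70 in T4. PLEK2, a membrane-binding protein that organises actin, read 8.83, 9.02 and 9.34 against 11.94, 11.84 and 12.29 in T4. Neither gene overlapped between the agents and T4, with group differences of -2.82 ± 0.20 for HBEGF (adjusted p = 1.57e-05) and -3.20 ± 0.24 for PLEK2 (adjusted p = 2.7e-05). ZBED2, a zinc finger protein, PHLDA1 and PHLDA2, which carry a lipid-binding domain, and SCD, the desaturase that makes monounsaturated fatty acids, were also among the 10 leading shared falls. Their differences from T4 in single agents ranged over -3.85 to -3.49 for ZBED2, -3.52 to -2.77 for PHLDA1, -3.31 to -2.72 for PHLDA2 and -3.09 to -2.74 for SCD. SCD lost its call without a table term in the fit (adjusted p = 0.0663), and its table term was 1.55. TFPI2, a secreted inhibitor of serine proteases, read 6.65, 6.63 and 6.81 with the agents against 8.59, 7.92 and 11.38 in T4, where sample 3 stood far above the others. TFPI2 fell by 2.93 ± 0.77 (adjusted p = 0.0365) and lost the call without any 1 of 11 of the 15 samples, with adjusted p up to 0.102.

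The leading shared rises included genes of epithelial structure, of secreted proteins and of metabolism. PPL, which encodes periplakin, a protein that links desmosomes and the cornified envelope to keratin filaments, read 11.54 with PD98059, 11.29 with LY294002 and 11.43 with dominant-negative Rap1, against 7.88, 8.96 and 6.92 in T4. The agents' samples lay close together whereas T4 spread widely below them, and S1 read 11.59, 11.21 and 10.91. S1 levels are given for FGFBP1 and PPL as examples, and not all shared genes lay near S1 with the agents. RGS2, a shared fall, averaged 12.88 in S1, 12.64 in T4 and 10.67 with the agents. MATN2, a shared rise, averaged 7.38, 7.60 and 9.87 in the same order. PPL rose by 3.55 ± 0.47 (adjusted p = 0.00128, limma). It was the single member of 11 tested genes of the cornified envelope and squamous differentiation that passed the test, where 3.68% of all genes rose. The list's median was -0.19, or -0.087 without T4 sample 3, -0.091 without PD98059, -0.054 without LY294002 and -0.40 without dominant-negative Rap1, beside -0.0012 over all genes tested.

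HPGD, which inactivates prostaglandins, read 8.73, 9.63 and 8.59 with the agents, against 8.32, 8.28 and 6.93 in T4. The deposited values did not overlap but lay close, and the differences of 2.85 for PD98059 and 2.70 for dominant-negative Rap1 rest on a table term of -1.96, whereas LY294002, which needs none, differed by 1.79. The call (2.23 ± 0.45, adjusted p = 0.0124) was lost without a table term (adjusted p = 0.292). SELENOP, a secreted carrier of selenium, read 9.21, 8.78 and 9.75 with the agents, against 6.98, 7.36 and 6.59 in T4, a rise of 2.51 ± 0.43 (adjusted p = 0.00573). CREG1, a glycoprotein of the lysosome, read 11.50, 11.80 and 11.40 against 10.08, 10.48 and 9.60 in T4, a rise of 1.87 ± 0.20 (adjusted p = 0.000426). For both genes every agent's value lay above every T4 value.

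The other leading shared rises were CITED2, described with the FOXO targets, IL1R1, the interleukin 1 receptor, MATN2, a matrix adaptor protein, PRODH, which starts the breakdown of proline, TGFBR3, a co-receptor for TGF-beta, and TMT1A, a methyltransferase. The group differences of the last 5 were 2.51 ± 0.54, 2.30 ± 0.41, 1.97 ± 0.29, 2.16 ± 0.51 and 3.07 ± 0.67. TGFBR3 and TMT1A lost the call without LY294002 (adjusted p = 0.0919 and 0.0764). RETREG1, a receptor for autophagy of the endoplasmic reticulum, and CRYAB, a small heat shock protein, were among the largest group rises at 2.32 ± 0.42 and 2.23 ± 0.54. The call of CRYAB was lost when either T4 sample 1 or T4 sample 3 was left out (adjusted p of 0.0618 and 0.0643). RGCC, a regulator of the cell cycle, also passed (2.19 ± 0.62, adjusted p = 0.0485) but was not shared: it differed from T4 by 0.07 with PD98059, 3.09 with LY294002 and 2.08 with dominant-negative Rap1, and it lost the call without any 1 of 12 samples (adjusted p up to 0.388).

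**Figure D2:**
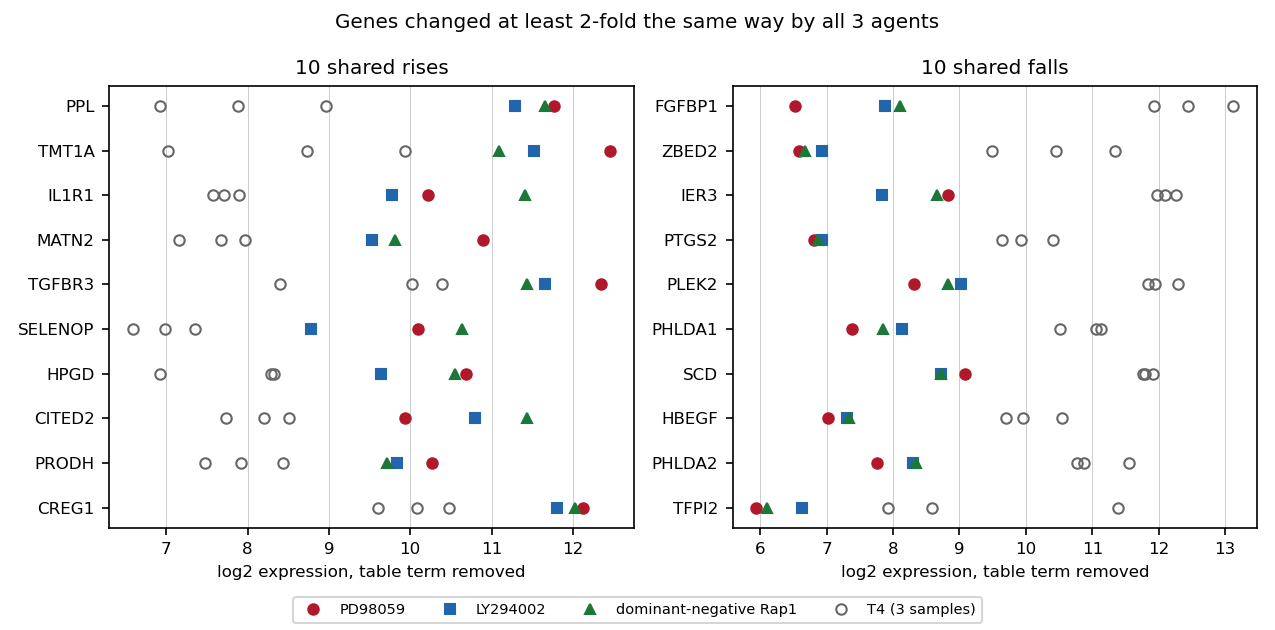
Log2 expression of the 10 leading shared rises and the 10 leading shared falls in each sample, with the table term removed from the PD98059 and dominant-negative Rap1 samples; filled symbols are the 3 agents (1 sample each) and open circles the 3 T4 samples. In every gene shown the 3 agents' values lie on 1 side of all T4 values, which the rule that chose these genes largely fixed.

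The shared falls not yet described are grouped here by known role, with the grouping made after the values were seen. Feedback regulators and immediate early genes were DUSP5, DUSP6, DUSP7, SPRY4, RGS2, RGS19, SOCS2, IER2, IER5, KLF10, FOSL1, BHLHE40 and ETV5, and HMGA2 encodes a chromatin protein. Ligands, receptors and their regulators were EREG, INHBA, VEGFC, PDGFC, CCL20, ANGPTL4, STC2, IGFBP6, EPHA2, IL4R, TLR2, TNFRSF10B, TNFRSF12A, GPR161, CDCP1, PMEPA1 and IRAK1. Matrix proteins, their modifying enzymes and adhesion molecules were FN1, THBS1, COL4A1, COL4A2, LAMB3, LOXL2, P3H2, PXDN, ADAMTS1, DSE, ITGA2, ITGA5, ITGA6, ITGB5, ITGB6, AMIGO2 and TPBG. Protease and protease inhibitor genes were PLAT, PRSS3, PRSS21 and SERPINE2. Actin and small GTPase regulators were ACTN1, TPM4, FSCN1, ARPC1B, RAC2, ASAP2, DOCK4 and RAI14. Lipid genes were DHCR7, HMGCS1, IDI1, MSMO1, FDPS, CYP51A1, INSIG1, FADS2, NPC1, OSBPL10, LIPG, CYP27B1 and HSD17B1. Genes of nucleotide, amino acid and polyamine metabolism and glycolysis were NT5E, PNP, UPP1, UCK2, XDH, ARG2, ASNS, GARS1, SAT1, SQOR and PFKP. Mitotic genes were MKI67, KIF2C, HJURP and TRIP13.

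The remaining shared falls were SLC20A1, SCG5, ANXA3, KDELR3, SMAGP, SUGCT, GSDME, LRRC59, BMAL2, SAMD4A, GALNT14, ERCC1, FKBP11, GLIPR1, SLC25A37, SMURF2, VPS37B, TSPAN13, CEMIP2, NT5DC2, CKAP4, STK17A, AP1M2, QSOX1, HOMER3 and CALU. Among the 46 shared rises, enzymes of oxidation, of fatty acids and of detoxification were ALDH3A2, ALDH6A1, MAOA, CAT, GSR, GSTA4, PHYH, CYP39A1, ELOVL5, HACD2 and PIR. Regulators of growth and transcription, beside CITED2, were CDKN1B, BTG1, BCL6, GAS1, DKK3 and SSBP2, histone genes were H2BC21 and H2AC11, and genes of immunity and of secreted proteins were IFNGR1, C3, CLU, METRN and TG. The others were PGRMC2, PLLP, BCAS4, APMAP, BBS1, TOR1AIP2, UBL3, ZNF33B, GRINA and BASP1. At the 2-fold limit, ELOVL5 (1.02 in the agent with the smallest difference) and CAT (1.07) lay just inside, SMARCD2 (0.9994) and SPART (0.9962) just outside, CALU (-1.0003) and HOMER3 (-1.0023) just inside, and TNNT1 (-0.9982) and GJC1 (-0.9918) just outside. Of the 170 genes, 50 had a table term of over 0.5 and 12 of at least 1.

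Promoters of the shared genes were searched because the FOXO and AP-1 factors lie downstream of the blocked pathways. The sequences are from RefSeq on GRCh38.p14, covering 250 bases before to 50 bases after each gene's start, and 36 shared rises and 103 shared falls had one. The letters GTAAACA, a FOXO motif searched on both strands, were found in 3 of the 36 shared rises (8.33%), in 1 of the 103 shared falls (0.971%), in 2.31% of the promoters of all genes tested and in 3.41% of all promoters of the table. The letters TGANTCA, an AP-1 motif, were found in 7 of 103 shared falls (6.8%), in 2 of 36 shared rises (5.56%), in 4.77% of genes tested and in 7.76% of all promoters. CCGGAAGT, an ETS motif, was in 2.91% of shared falls, 2.78% of shared rises and 8.12% of genes tested, and CACGTG, an E-box, in 8.74%, 8.33% and 10.1%. A match is a description of the letters and not a site of binding. The 3 shared rises with the FOXO letters are shown with a leading shared fall that holds the AP-1 letters and with ITGA5, an integrin, and capitals mark the match on either strand.
SELENOP (chr5:42811843-42812142, minus strand): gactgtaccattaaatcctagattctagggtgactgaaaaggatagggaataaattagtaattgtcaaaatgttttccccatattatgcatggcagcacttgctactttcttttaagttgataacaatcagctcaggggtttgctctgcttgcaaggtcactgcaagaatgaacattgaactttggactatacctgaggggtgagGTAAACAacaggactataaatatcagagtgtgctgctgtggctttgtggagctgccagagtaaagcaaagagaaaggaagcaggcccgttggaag
BTG1 (chr12:92145797-92146096, minus strand): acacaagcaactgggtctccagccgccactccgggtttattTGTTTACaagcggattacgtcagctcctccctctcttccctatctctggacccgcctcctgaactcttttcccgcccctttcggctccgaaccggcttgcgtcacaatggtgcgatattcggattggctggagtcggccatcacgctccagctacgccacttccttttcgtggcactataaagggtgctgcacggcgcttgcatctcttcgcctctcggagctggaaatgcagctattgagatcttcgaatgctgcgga
PLLP (chr16:57284623-57284922, minus strand): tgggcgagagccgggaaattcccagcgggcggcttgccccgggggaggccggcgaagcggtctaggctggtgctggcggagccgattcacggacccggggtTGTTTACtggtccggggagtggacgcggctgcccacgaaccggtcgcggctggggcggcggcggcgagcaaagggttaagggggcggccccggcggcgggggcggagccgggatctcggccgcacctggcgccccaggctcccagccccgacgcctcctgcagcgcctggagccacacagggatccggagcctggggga
TFPI2 (chr7:93890704-93891003, minus strand): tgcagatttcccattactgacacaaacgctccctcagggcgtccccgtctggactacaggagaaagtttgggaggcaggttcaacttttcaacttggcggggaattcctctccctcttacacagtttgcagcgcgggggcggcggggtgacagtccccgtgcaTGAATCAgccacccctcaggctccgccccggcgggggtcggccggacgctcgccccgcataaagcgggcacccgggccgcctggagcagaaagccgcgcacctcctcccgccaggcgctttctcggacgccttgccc
ITGA5 (chr12:54419217-54419516, minus strand): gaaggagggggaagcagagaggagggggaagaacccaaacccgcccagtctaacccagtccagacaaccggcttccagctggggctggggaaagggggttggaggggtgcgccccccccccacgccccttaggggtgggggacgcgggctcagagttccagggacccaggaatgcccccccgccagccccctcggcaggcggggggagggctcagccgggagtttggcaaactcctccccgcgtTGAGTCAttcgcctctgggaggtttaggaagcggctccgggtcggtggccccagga
Relative to the gene's start, the first base of the match lies at -45 in SELENOP, at -209 in BTG1, an antiproliferative gene, at -149 in PLLP, a membrane protein of myelin and epithelia, at -87 in TFPI2 and at -6 in ITGA5. BTG1 and PLLP are described here because of these letters. BTG1 read 12.68 with PD98059, 13.04 with LY294002 and 13.33 with dominant-negative Rap1, against 11.82, 12.10 and 10.15 in T4, a difference of 1.84 (adjusted p = 0.0289, limma). PLLP read 10.66, 8.91 and 9.83 against 7.69, 7.95 and 7.50 in T4, a difference of 1.85 (adjusted p = 0.0113). Both were higher in each agent's sample than in any T4 sample.

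Of 23 tested genes that ERK is known to switch on or that feed back on it, 12 fell and 0 rose, where 5.37% and 3.68% of all genes did. The list's median difference was -0.82 for the group, and -1.12 with PD98059, -1.06 with LY294002 and -0.86 with dominant-negative Rap1. Counts stayed between 9 and 13 falls when any 1 sample, or T4 sample 3 and dominant-negative Rap1 together, was left out. DUSP6, the phosphatase that switches ERK off, read 7.53 with PD98059, 9.41 with LY294002 and 8.78 with dominant-negative Rap1, against 11.51, 11.69 and 10.85 in T4. It was lowest in the MEK inhibitor sample, at -4.21 from T4, beside -1.93 for LY294002 and -2.96 for dominant-negative Rap1, and the group fall was 2.67 ± 0.54 (adjusted p = 0.0122). SPRY4, a Sprouty feedback inhibitor, read 6.86, 6.74 and 7.31 against 9.43, 9.21 and 9.41 in T4. FOSL1, a subunit of the AP-1 transcription factor, read 7.22, 7.09 and 7.18 against 9.12, 9.33 and 9.60 in T4. The spread of FOSL1 within each group was small beside the gap, and both genes reached an adjusted p of 3.72e-06 with falls of 2.52 ± 0.15 for SPRY4 and 2.36 ± 0.14 for FOSL1.

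Other ERK-linked genes had weaker calls or did not pass. ETV5, an ETS transcription factor, fell by 1.31 ± 0.36 (adjusted p = 0.0456), but the call was lost without any 1 of 14 of the 15 samples (adjusted p up to 0.0829). ETV4, its relative, differed by -0.23 ± 0.13 (adjusted p = 0.295) at low levels of 6.91 to 7.08 in the agents' samples and 6.94 to 7.42 in T4. MYC differed by -0.56 ± 0.37 (adjusted p = 0.377) and CCND1, which encodes cyclin D1, by 0.11 ± 0.29 (adjusted p = 0.861). The sign for CCND1 turned when T4 sample 1, T4 sample 2 or LY294002 was left out. EGR1, an immediate early transcription factor, read 8.80 with PD98059 and 8.79 with dominant-negative Rap1 in the second deposited table. In the first it read 11.10 with LY294002 and 11.10, 11.22 and 9.10 in T4. The T4 value of 9.10 lay near the values of the second table and far below the other T4 values of 11.10 and 11.22. The widest gap in EGR1 thus lay within the first table, among the T4 samples. For the distances of PD98059 and dominant-negative Rap1 from T4 and LY294002, agent and table cannot be told apart.

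Few components of the pathways themselves passed the test, and counts this small cannot be set apart from the shares over all genes. Of 16 tested members of the RAS, RAF, MEK and ERK cascade, 1 rose and 2 fell, where 3.68% and 5.37% of all genes did. The list median was 0.03, and its sign turned when single samples were left out. MAP2K1, which encodes MEK1, read 8.29, 8.62 and 8.01 with PD98059, LY294002 and dominant-negative Rap1, against 9.46, 9.24 and 9.66 in T4, a fall of 0.98 ± 0.16 (adjusted p = 0.00511). PEBP1, the RAF kinase inhibitor protein, rose by 0.99 ± 0.14 (adjusted p = 0.0017). SHC1, an adaptor between receptors and RAS, fell by 1.03 ± 0.17 (adjusted p = 0.00523), a call lost without LY294002 (adjusted p = 0.0629). MAPK3, which encodes ERK1, differed by 0.04 ± 0.22 (adjusted p = 0.937), and its sign turned under several alternatives, among them LY294002 against T4 within the first table (-0.27). EGFR differed by 0.40 ± 0.42 (adjusted p = 0.605), and by -0.05 without T4 sample 3.

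Of 20 tested members of the PI3K, AKT and mTOR pathway, 1 rose and 2 fell, where 3.68% and 5.37% of all genes did. The list median was -0.05, and its sign turned without PD98059 (0.02) or LY294002 (0.06), among others. GSK3B, a kinase inhibited by AKT, fell by 1.02 ± 0.28 (adjusted p = 0.0446), INPP4B, a phosphatase of the pathway's lipids, by 0.99 ± 0.24 (adjusted p = 0.0268), and RHEB, the GTPase that activates mTOR, rose by 0.52 ± 0.14 (adjusted p = 0.0408). These 3 calls were not firm: GSK3B was lost without any 1 of 11 samples (adjusted p up to 0.102), RHEB without any 1 of 12 (up to 0.0986), and INPP4B without T4 sample 3 (0.0632), PD98059 (0.0524) or LY294002 (0.123). AKT1 differed by -0.15 ± 0.13 (adjusted p = 0.514), with its sign turned in fits without a table term (0.01). Of 19 tested regulators and effectors of Rap1, 1 fell and 0 rose, near the shares of 5.37% and 3.68% over all genes. The list median was -0.15, or -0.094 without T4 sample 3 and -0.068 without dominant-negative Rap1. VASP, which promotes actin assembly, fell by 0.62 ± 0.13 (adjusted p = 0.0149), and not without LY294002 (adjusted p = 0.0858).

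Of 18 tested targets of FOXO factors, 5 rose and 0 fell, where 3.68% and 5.37% of all genes did. The median difference was 0.88 for the group, and 0.72 with PD98059, 0.66 with LY294002 and 1.17 with dominant-negative Rap1. CITED2, a regulator of the coactivators CBP and p300, read 8.82 with PD98059, 10.80 with LY294002 and 10.31 with dominant-negative Rap1, against 8.51, 8.20 and 7.73 in T4. The deposited PD98059 value lay close to T4, and its difference of 1.79 rests on a table term of -1.12. The group rise was 2.60 ± 0.44 (adjusted p = 0.00556). CDKN1B, the cyclin-dependent kinase inhibitor p27, read 9.69, 10.13 and 9.74 against 8.86, 8.66 and 8.39 in T4, with no overlap and a rise of 1.39 ± 0.18 (adjusted p = 0.00128). CAT, which encodes catalase, rose by 1.26 ± 0.29 (adjusted p = 0.0219) and SESN1, a sestrin that restrains mTOR, by 1.06 ± 0.23 (adjusted p = 0.0172), and BCL6, a transcriptional repressor, completed the 5 with 1.44 ± 0.40 (adjusted p = 0.044). CAT and SESN1 lost the call without LY294002 (adjusted p = 0.0974 and 0.0709), and the count of rises was 2 without that sample and 4 to 6 otherwise. The list median was 0.43 without T4 sample 3. IRS2, an adaptor of the insulin receptor, differed by 1.23 ± 0.46 (adjusted p = 0.118) and PDK4, a mitochondrial kinase, by 0.23 ± 0.14 (adjusted p = 0.325).

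Integrins and matrix genes fell together in part. Of 11 tested integrin subunits, 5 fell and 0 rose, where 5.37% and 3.68% of all genes did. All 5 were shared falls, and the list median was -0.57, or -0.95 without LY294002. ITGB6, which pairs with the alpha V subunit, read 6.85, 6.91 and 6.74 with PD98059, LY294002 and dominant-negative Rap1, against 9.19, 9.04 and 8.64 in T4. ITGA5, the fibronectin receptor subunit, read 7.35, 7.37 and 8.17 against 9.60, 9.02 and 10.27 in T4, and ITGA2, a collagen receptor subunit, 7.39, 7.61 and 7.64 against 9.04, 8.74 and 9.46. In these 3 genes the agents' samples lay below all T4 samples, with falls of 1.88 ± 0.21 for ITGB6 (adjusted p = 0.00047), 2.08 ± 0.32 for ITGA5 (adjusted p = 0.00305) and 1.71 ± 0.25 for ITGA2 (adjusted p = 0.00274). ITGA6, the laminin receptor subunit, fell by 1.72 ± 0.41 (adjusted p = 0.0244), a call lost without T4 sample 3 (0.0577) or LY294002 (0.0802), and ITGB5 completed the 5 with -1.78 ± 0.47 (adjusted p = 0.0372). The count of falls was 3 without T4 sample 3 or without LY294002. ITGB1, the common beta 1 subunit, read 12.70, 12.74 and 12.56 with the agents and 12.71, 12.72 and 12.68 in T4, a difference of 0.07 ± 0.11 (adjusted p = 0.734) whose sign turned under other normalizations.

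Of 16 tested matrix and basement membrane genes, 5 fell and 0 rose, again all shared, where 5.37% and 3.68% of all genes fell and rose. The list median was -0.33, or -0.52 without S1 sample 3, -0.56 without T4 sample 3 and -0.19 without LY294002. FN1, which encodes fibronectin, read 7.10 with PD98059, 7.18 with LY294002 and 8.89 with dominant-negative Rap1, against 11.56, 10.56 and 11.0007 in T4, a fall of 3.55 ± 0.44 (adjusted p = 0.000892). THBS1, the matrix protein thrombospondin 1, read 7.91, 8.40 and 9.60 against 11.74, 12.03 and 10.72 in T4, and fell by 3.19 ± 0.47 (adjusted p = 0.00233). In both genes the dominant-negative Rap1 sample was nearest to T4. COL4A1 and COL4A2, the basement membrane collagen chains, fell by 2.56 ± 0.28 and 1.93 ± 0.26 (adjusted p = 0.000426 and 0.00135), and LAMB3, a laminin chain of the epithelial basement membrane, by 1.66 ± 0.31 (adjusted p = 0.00808), a call lost without LY294002 (adjusted p = 0.069). Of 22 tested genes of junctions and polarity, 1 fell and 0 rose, near the shares of 5.37% and 3.68% over all genes. The list median was 0.07, and 3 rose and 0 fell without T4 sample 2. CDH3, P-cadherin, fell by 0.58 ± 0.16 (adjusted p = 0.0457) and was lost without any 1 of 11 samples (adjusted p up to 0.433), and CDH1, E-cadherin, differed by 0.20 ± 0.38 (adjusted p = 0.797), or by -0.09 without PD98059. Of the 7 tested epithelial markers, LAMB3 fell as described and KRT18, a keratin of simple epithelia, fell by 0.92 ± 0.21 (adjusted p = 0.0217), and not without LY294002 (adjusted p = 0.169), where 0 of the 7 passed as lower.

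Of 5 tested EGFR ligands and receptors, 2 fell and 0 rose, where 5.37% and 3.68% of all genes did. The list median was -1.06, or -0.69 without T4 sample 3 and -1.70 with 1 fall without LY294002. Beside HBEGF, EREG, the ligand epiregulin, read 6.69, 7.02 and 7.84 with PD98059, LY294002 and dominant-negative Rap1, against 9.13, 8.80 and 9.91 in T4, a fall of 2.04 ± 0.34 (adjusted p = 0.00529) that did not pass without LY294002 (adjusted p = 0.0572). Of 21 tested genes of NF-kappaB and its cytokines, 4 fell and 0 rose, beside the same 5.37% and 3.68% of all genes. The list median was -0.48, or -0.22 without T4 sample 3 and -0.086 without LY294002. CCL20, a chemokine, read 7.21, 6.998 and 8.58 against 10.86, 10.48 and 10.32 in T4, a fall of 2.91 ± 0.40 (adjusted p = 0.00166). CXCL8, which encodes interleukin 8, read 7.73 with PD98059, 7.10 with LY294002 and 9.71 with dominant-negative Rap1, against 10.34, 10.08 and 10.82 in T4. The dominant-negative Rap1 sample was close to T4 for CXCL8, and the call (-2.47 ± 0.56, adjusted p = 0.0212) was lost without T4 sample 3 (0.0504) or LY294002 (0.2). IL1A fell by 1.49 ± 0.35 (adjusted p = 0.0229), with the call lost without T4 sample 1 (0.0585), T4 sample 3 (0.052) or LY294002 (0.209). The count of falls was 2 without T4 sample 3 or LY294002 and 7 without dominant-negative Rap1.

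Genes of sterol synthesis fell in large part. Of 16 tested genes of cholesterol synthesis and uptake, 12 fell, 7 of them shared, and 0 rose, where 5.37% and 3.68% of all genes fell and rose. The list median was -1.13 for the group, and -0.90 with PD98059, -1.04 with LY294002 and -1.60 with dominant-negative Rap1. The count of falls was 8 without LY294002 and 10 to 13 without any other sample. IDI1, an isomerase of the mevalonate pathway, read 10.44, 10.0001 and 10.10 with the agents, against 11.56, 11.44 and 11.72 in T4. MSMO1, a sterol methyl oxidase, read 10.64, 10.22 and 10.30 against 11.95, 11.90 and 11.73 in T4. HMGCS1, which makes the precursor of mevalonate, read 8.24, 7.87 and 7.80 against 9.06, 9.31 and 9.73 in T4. The 3 genes did not overlap between agents and T4, and fell by 1.59 ± 0.14 (adjusted p = 9.19e-05), 1.65 ± 0.17 (adjusted p = 0.000362) and 1.60 ± 0.21 (adjusted p = 0.00123). INSIG1, the sterol sensor partner, fell by 1.38 ± 0.22 (adjusted p = 0.00367).

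Of 10 tested genes of fatty acid synthesis, 2 rose and 3 fell, where 3.68% and 5.37% of all genes did. The list median was -0.90. The count of falls was 1 without S1 sample 1, S1 sample 2, S1 sample 3, MMPs and ADAMs, LY294002, Tyrphostin AG 1478 or mAb225 and 5 without PD98059, and the count of rises 1 or 2. ELOVL5, an elongase of polyunsaturated fatty acids, rose by 1.26 ± 0.15 (adjusted p = 0.000892), whereas SCD and the desaturases FADS1 and FADS2 fell. FADS1 (-1.43 ± 0.37, adjusted p = 0.0347) and FADS2 (-1.23 ± 0.32, adjusted p = 0.0345) were each lost without any 1 of 9 samples (adjusted p up to 0.164 and 0.115). Of 19 tested genes of glycolysis, 6 fell and 1 rose, beside the same 5.37% and 3.68% of all genes, with a median of -0.50. The phosphofructokinase genes moved apart: PFKP, the platelet type, read 8.71, 8.56 and 9.89 with the agents against 11.42, 11.12 and 11.23 in T4, a fall of 2.72 ± 0.32 (adjusted p = 0.000686), and PFKM, the muscle type, read 11.01, 10.88 and 10.74 against 9.99, 10.31 and 10.29, a rise of 0.79 ± 0.13 (adjusted p = 0.00515). TPI1, triosephosphate isomerase, fell by 0.96 ± 0.19 (adjusted p = 0.00958) and SLC2A3, a glucose transporter, by 1.33 ± 0.27 (adjusted p = 0.0124), the second lost without LY294002 (adjusted p = 0.103). The count of glycolysis falls was 3 without T4 sample 2 and 8 without T4 sample 3.

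Of 23 tested genes of ATF4 and amino acid supply, 6 fell and 2 rose, where 5.37% and 3.68% of all genes did. The list median was -0.28, and 1 gene of the list fell without LY294002. ASNS, asparagine synthetase, fell by 1.40 ± 0.28 (adjusted p = 0.0113). TRIB3, a pseudokinase, fell by 1.44 ± 0.25 (adjusted p = 0.00594) and ATF3, a stress transcription factor, by 0.85 ± 0.18 (adjusted p = 0.0152), and SLC3A2, a subunit of amino acid transporters, rose by 1.11 ± 0.20 (adjusted p = 0.00714). Without LY294002 these 3 did not pass, with adjusted p of 0.0696, 0.0946 and 0.0802.

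**Figure D3:**
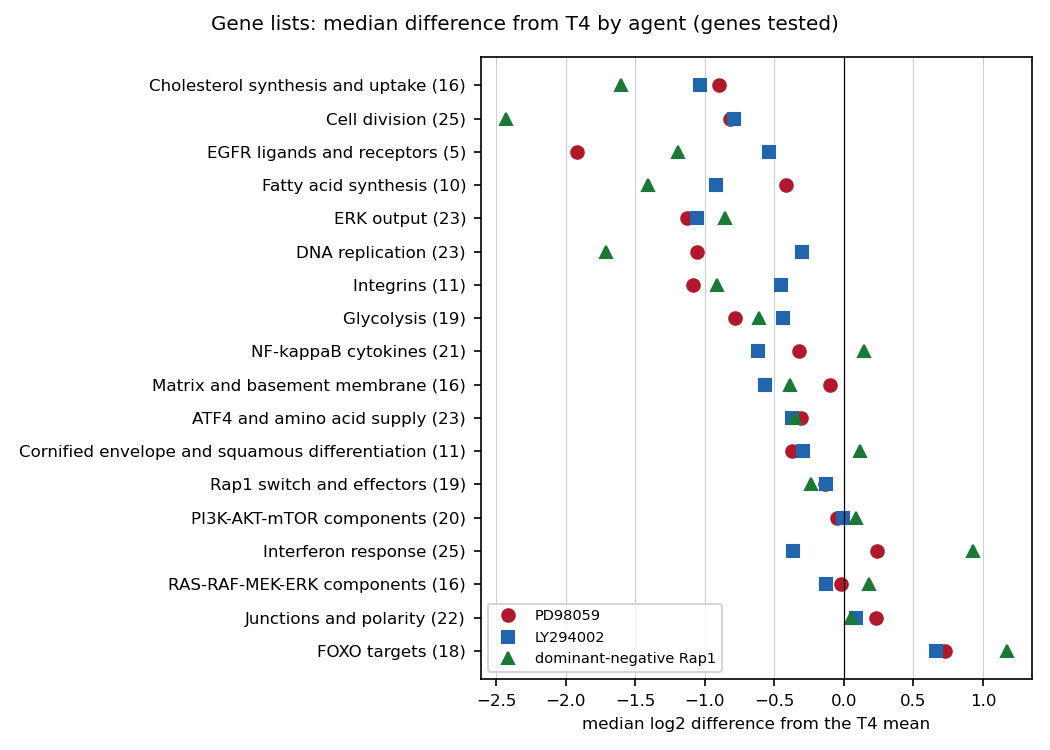
Median log2 difference from the T4 mean over the tested genes of 18 lists (number tested in brackets) for each agent's single sample. Cholesterol genes lie below 0 with all 3 agents (-0.90, -1.04 and -1.60) and FOXO targets above (0.72, 0.66 and 1.17), whereas the cell division median of dominant-negative Rap1 is -2.43.

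Proliferation genes separated the agents. Of 25 tested cell division genes, 2 fell and 0 rose for the group, where 5.37% and 3.68% of all genes did. Of 23 tested DNA replication genes 0 passed with limma. Without LY294002, 4 passed as lower, where 218 of all genes tested did. The cell division median was -0.82 with PD98059, -0.79 with LY294002 and -2.43 with dominant-negative Rap1, and the DNA replication median -1.06, -0.30 and -1.71. For the group the DNA replication median was -0.81, or -0.46 without S1 sample 3, -0.52 without T4 sample 3 and -1.41 without LY294002. MKI67, the proliferation antigen Ki-67, read 9.41, 8.16 and 7.49 with the agents, against 9.63, 9.29 and 10.52 in T4, so that the deposited PD98059 value lay within the T4 values. Its fall of 2.08 ± 0.52 (adjusted p = 0.0316) was lost without any 1 of 7 samples (adjusted p up to 0.0774), and KIF2C, a mitotic kinesin (-1.40 ± 0.36, adjusted p = 0.0341), without any 1 of 8 (up to 0.0819). The other MKI67 probe sets differed by -0.45, -0.61 and -1.42 and did not pass (adjusted p of 0.615, 0.417 and 0.104, limma over probe sets). With the mean of all probe sets MKI67 differed by -1.14 and did not pass (adjusted p = 0.113). The count of cell division falls was 0 without any 1 of 7 samples, LY294002 among them, 8 without T4 sample 2 and 5 without PD98059.

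PD98059 and dominant-negative Rap1 lie in the same table, so their difference needs no table term. All 25 cell division genes read lower with dominant-negative Rap1 than with PD98059, where 4612 of all 9111 genes did. Of the 25, 22 were at least 2-fold lower, where 2.02% of all genes were, and the median difference was -1.61. Of the 23 DNA replication genes, 22 read lower and 6 at least 2-fold, beside the same 4612 genes and 2.02%, with a median of -0.81. TOP2A, a topoisomerase of dividing cells, read 7.56 with dominant-negative Rap1 and 10.76 with PD98059, and RRM2, a ribonucleotide reductase subunit, 7.12 and 9.88. NUSAP1 read 7.63 and 10.39, ZWINT 7.54 and 10.11, and PCLAF 8.13 and 11.05. These 5 were the genes that lay farthest below the other agents with dominant-negative Rap1. These are single samples with no replicate check.

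**Figure D4:**
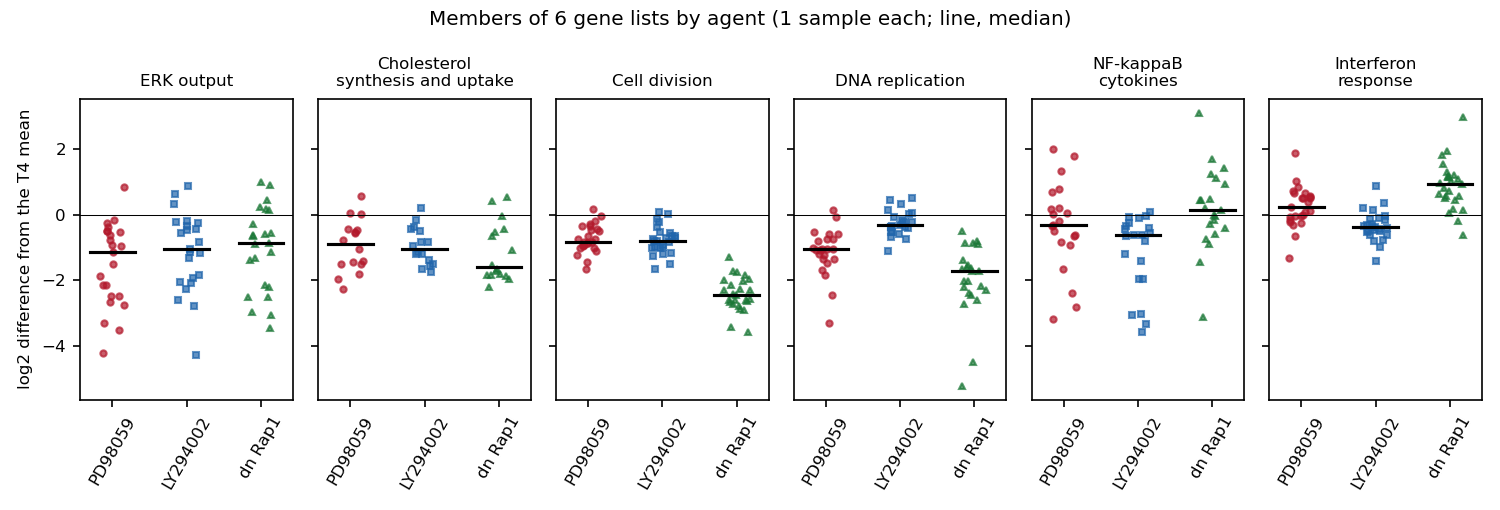
Log2 difference from the T4 mean for each tested member of 6 gene lists in each agent's single sample, with the list median as a bar. Cell division genes lie lowest with dominant-negative Rap1 (median -2.43), and the interferon response medians are 0.24, -0.36 and 0.93.

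Dominant-negative Rap1 stood highest over the other agents for CHI3L1, a secreted chitinase-like protein, which read 11.21 against 7.63 with PD98059 and 7.50 with LY294002, where T4 read 6.94, 7.15 and 6.73. S100A8, a calcium-binding protein of inflamed epithelium, read 11.87 with dominant-negative Rap1, 8.94 with PD98059 and 7.27 with LY294002, and 9.49, 9.58 and 9.86 in T4. CXCL1, a chemokine, read 9.43, 7.08 and 6.89 in the same order and 7.89, 7.61 and 9.37 in T4, so that dominant-negative Rap1 was close to T4 sample 3. PLAU, the urokinase gene, read 10.16, 7.57 and 7.54, and 9.58, 9.63 and 9.29 in T4. KYNU, an enzyme of tryptophan breakdown, read 10.52, 8.18 and 7.397, and 8.35, 8.48 and 9.19 in T4. In the deposited values of PLAU and KYNU, dominant-negative Rap1 lay above and the other agents below every T4 value. These 5 genes were chosen by their distance from the other agents. Dominant-negative Rap1 and PD98059 lie in another table than T4 and LY294002. Agent and table therefore cannot be told apart in their distances from T4 and LY294002. Of 25 tested interferon response genes, 1 fell and 0 rose for the group, near the shares of 5.37% and 3.68% over all genes. The list median was 0.01, or 0.54 with 2 rises without LY294002. The agent medians were 0.24 for PD98059, -0.36 for LY294002 and 0.93 for dominant-negative Rap1. Within the second deposited table, 23 of the 25 read higher with dominant-negative Rap1 than with PD98059 and 2 lower, where 4612 of all 9111 genes read lower. At least 2-fold higher were 5, where 2.3% of all genes were. ISG20, an interferon-induced nuclease, was the gene that fell (-1.22 ± 0.29, adjusted p = 0.0271), and it lost the call without any 1 of 5 samples (adjusted p up to 0.173).

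PD98059 stood highest over the other agents for CDC42EP4, an effector of the GTPase CDC42, at 10.78, beside 8.44 with LY294002, 8.33 with dominant-negative Rap1 and 7.97, 8.38 and 7.94 in T4. SERPINB13, a protease inhibitor of squamous epithelium, read 9.04 with PD98059, beside 6.78 and 7.31 with LY294002 and dominant-negative Rap1 and 6.88, 7.20 and 6.86 in T4. Both genes read high in the PD98059 sample alone among these 6 samples. KRT16, a keratin of activated squamous epithelium, CXCL14, a chemokine, and TPM1, a tropomyosin, were the other 3, at 11.98, 8.85 and 10.62 with PD98059, but their table terms of -1.93, -1.49 and -0.99 make the differences from T4 (5.55, 3.51 and 2.56) uncertain. The genes lowest with PD98059 beyond the others were APOE, CLDN1, IER5, RGCC and STIP1, at -1.09, -1.45, -3.08, 0.07 and -1.76 from T4.

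LY294002 stood highest over the other agents for CCN2, a matrix-associated growth regulator, which read 10.40, beside 6.82 with PD98059 and 6.85 with dominant-negative Rap1 and 9.66, 9.64 and 7.81 in T4. CCN1, its relative, read 9.38, beside 7.48 and 7.27, and 9.89, 9.51 and 8.43 in T4, so LY294002 lay within the T4 values and the other agents below them. The others were EGR1, above, and IGFBP2 and TYMS, whose large table terms of 1.77 and 2.12 enter the values of the other 2 agents. Lowest with LY294002 beyond the others was CXCL2, a chemokine, at 7.50, beside 10.11 with PD98059, 9.80 with dominant-negative Rap1 and 10.47, 10.06 and 11.05 in T4. BBOX1, ECM2, GPNMB and SFTPD completed the rule, with LY294002 differing from T4 by -0.03, -0.22, 0.56 and -0.56. For these 4 genes the other 2 agents read above the T4 mean with PD98059 at 2.68, 3.64, 5.35 and 2.08 and dominant-negative Rap1 at 3.65, 3.04, 6.86 and 3.43. LY294002 and T4 lie in the first deposited table and the other 2 agents in the second. For the distances of those 2 agents from LY294002 or from T4, agent and table therefore cannot be told apart in any gene of this paragraph. The distance of LY294002 from T4, as for CXCL2, lies within 1 table and rests on 1 LY294002 sample.

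Set against the 6 other agents, the 3 agents gave 0 genes past the test (0% of 9111), with 556 at an unadjusted p under 0.05 and a smallest adjusted p of 0.439 (limma). Without PD98059, 8 genes passed. This test does not show that the agents act alike, and no change described above is particular to the 3 agents by this test.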

How the data were processed

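The deposited values are log2 expression values per probe set, as their range shows. The sources used here do not give the software, background correction or normalization that the authors used, and whether the 2 tables were normalized together is unknown. Per the labels, RNA was Trizol-extracted and biotin-labelled. Of 22215 probe sets, 19707 named 1 gene, 614 several and 1706 none, and 188 were named differently by the annotations. Symbols were updated through RefSeq for 19689. The probe set with the highest mean stood for each of 12149 genes, and the dimmest 25% were left out. limma 3.58.1 in R 4.3.3 fitted 5 groups (S1, T4 and 3 classes of 3 agents) with the table as a fixed block, 2-sided, Benjamini-Hochberg adjusted over 9111 genes, threshold 0.05, and was tested on simulated data. Errors after ± are standard errors. Single agents' differences used each agent as its own group. The number of arrays limits the precision. The members and the 21 gene lists were chosen with earlier results of these data known. Named genes were the 10 largest group and shared changes each way, the 5 farthest beyond the other agents each way, up to 4 passing members of each list by p, and fixed pathway genes. Genes whose second probe set passed the opposite way were left out.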

Additional observations from a re-analysis of the deposited data

How the results depend on the processing

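Of 71 named genes that passed the test, 42 kept the call whichever of the 15 samples was left out. Under every alternative 1 kept it, and 37 when the fit with only T4 and the 3 agents is set aside. That fit takes its table term from LY294002 against the other 2 agents, so its difference is that of LY294002 from T4. The counts of 335 higher and 489 lower became 184 and 304 for LY294002 against T4 in the first table alone, 0 and 2 with only T4 and the 3 agents, where the other samples' spread and a usable table term are missing, and 715 and 962 with array weights. Leaving out each sample gave 174 to 400 higher and 218 to 556 lower, lowest without LY294002. The number higher was 220 without GM6001 and 213 without the sample labelled MMPs and ADAMs. The shared counts of 46 and 124 became 146 and 272 at 1.5-fold, 15 and 44 at 3-fold, and 31 to 74 and 108 to 148 when 1 sample other than the agents was left out; leaving out an agent gives no shared count. The count against the other agents was 0 to 8. Filters, probe set choice, quantile normalization and an absent table block kept these counts within 1.5 times, as did a random table block for the counts against T4 and against the other agents, and the other agents as 1 group for the counts against T4 and shared. Averaging T4 samples 1 and 2 (254 and 388) and leaving out T4 sample 3 with dominant-negative Rap1 (366 and 648) were chosen after seeing the data. Signs turned only in genes that did not pass: ITGB1 was -0.037 with the most variable probe set, -0.040 with quantile normalization within tables, and -0.034 both across tables and without a table block; AKT1 was 0.064 and 0.012 in those last settings. MAPK3 was -0.27 in the first table alone and with only T4 and the agents, which both give LY294002 against T4. It was -0.26 with array weights, -0.20 without T4 sample 3 and dominant-negative Rap1, and -0.17 to 0.43 with 1 sample left out. With 1 sample left out, CCND1 was -0.15 to 0.38, EGFR -0.047 to 0.67 and CDH1 -0.086 to 0.43. CCND1 was -0.030 with T4 samples averaged and EGFR -0.056 without T4 sample 3 and dominant-negative Rap1. The causes were not tested. No paired analysis was possible because the agents carry no replicate number in the labels.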
